A study of Mus musculus with 6 samples.

Results

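Transcripts of 8 epidermal alarmin and antimicrobial peptide genes were measured in mouse tail epidermis: S100a8, S100a9, S100a7a, Lcn2, Slpi, Defb3, Defb4 and Defb14. They were taken as every non-control probe whose RefSeq accession belongs to one of these genes, which gave 1 probe for each of the 8, of 21368 genes named on the array and 14133 genes tested. The genes were selected on measured values, their levels on the young and aged arrays, so these levels and the differences between the groups are a description without a test. The samples were total epidermis of wild-type C57BL/6 mice, lifted from tail skin with EDTA. The young group was 8 weeks old (3 samples). In the aged group, replicate 1 was 22 months old and replicates 2 and 3 were 25 months old (3 samples). No group was treated, and every sample had its own 1-colour array. Whether the 3 samples of a group are 3 different mice is not stated in the labels. Y-linked Ddx3y, Eif2s3y and Kdm5d were above background only on replicate 1 of each group, so a group is not all from 1 mouse. Whether replicates 2 and 3 of a group are different mice is not known. A p-value here therefore reflects the spread between these 6 samples, which may be technical in part, and precision is limited by their number.

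Alarmins are proteins that stressed or damaged epithelial cells release and that alert immune cells. S100A8 and S100A9 are calcium-binding proteins that pair as calprotectin, withhold zinc and manganese from microbes, and signal through Toll-like receptor and RAGE receptors. Beta-defensins are cationic peptides that damage microbial membranes, lipocalin 2 (Lcn2) captures bacterial siderophores and so withholds iron, and SLPI inhibits serine proteases released by neutrophils. In skin these genes are mostly low in calm epidermis and are induced in keratinocytes by wounding, infection and cytokines of the IL-17, IL-22 and IL-1 families, while S100A8, S100A9 and lipocalin 2 are also abundant in neutrophils.

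Of the 8 genes, 6 had a higher mean in aged epidermis and 2 a lower one, beside 63.4% of all tested genes with a higher mean. The members differed widely from one another. S100a8, S100a9 and Slpi were lower on the 22-month array than on any young array and higher on both 25-month arrays than on any young array. For Slpi the 22-month value differed from the lowest young value by only -0.02 log2 units. Lcn2 was higher on all 3 aged arrays, S100a7a lower on all 3, and Defb4 and Defb14 differed little. Both 25-month arrays lay above every young array for 5 members, S100a8, S100a9, Slpi, Lcn2 and Defb3, as they did for 32.4% of all tested genes. Values are log2 of the processed spot signal minus the array's 75th percentile, so 0 is the 75th percentile of an array, and levels of different genes are not compared because each probe has its own brightness.

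The sequence around the start of 4 of the 8 genes, S100a8, S100a9, Slpi and Lcn2, is given first. Transcription factors such as those described further on can act at promoters, and their binding was not measured here. The RefSeq promoter table of the GRCm38.p6 build matched 6 of the 8 genes, and Defb4 and Defb14 were not matched. Each window holds 250 bases before and 50 bases after the annotated start, 5′ to 3′ on the gene's strand. Capitals mark matches to TATAAA or to the C/EBP core TTNNGNAA on either strand. The windows are chr3:90668821-90669120 (plus strand) for S100a8, chr3:90695672-90695971 (minus strand) for S100a9, chr2:164356458-164356757 (minus strand) for Slpi and chr2:32387690-32387989 (minus strand) for Lcn2.
S100a8: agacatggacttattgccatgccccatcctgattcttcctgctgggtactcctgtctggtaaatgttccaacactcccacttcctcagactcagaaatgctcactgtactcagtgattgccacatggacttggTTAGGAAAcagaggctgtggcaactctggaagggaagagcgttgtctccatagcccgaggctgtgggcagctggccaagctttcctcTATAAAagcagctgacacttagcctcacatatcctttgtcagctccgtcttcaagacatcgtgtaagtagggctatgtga
S100a9: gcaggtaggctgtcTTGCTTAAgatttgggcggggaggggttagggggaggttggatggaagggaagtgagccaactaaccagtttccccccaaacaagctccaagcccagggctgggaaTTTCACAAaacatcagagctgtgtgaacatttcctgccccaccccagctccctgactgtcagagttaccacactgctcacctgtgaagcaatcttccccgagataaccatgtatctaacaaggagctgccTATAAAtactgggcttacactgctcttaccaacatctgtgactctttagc
Slpi: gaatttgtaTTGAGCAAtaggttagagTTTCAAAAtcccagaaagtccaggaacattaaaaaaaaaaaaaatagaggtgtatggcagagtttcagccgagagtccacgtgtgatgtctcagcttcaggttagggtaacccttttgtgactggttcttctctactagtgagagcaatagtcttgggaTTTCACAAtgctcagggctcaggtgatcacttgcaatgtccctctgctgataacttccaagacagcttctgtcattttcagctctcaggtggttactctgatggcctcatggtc
Lcn2: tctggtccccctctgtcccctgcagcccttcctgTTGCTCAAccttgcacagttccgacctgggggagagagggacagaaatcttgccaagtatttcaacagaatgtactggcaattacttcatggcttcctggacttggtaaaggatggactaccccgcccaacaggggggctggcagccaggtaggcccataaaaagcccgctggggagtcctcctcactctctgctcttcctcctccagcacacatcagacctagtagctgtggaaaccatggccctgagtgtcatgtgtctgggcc

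The C/EBP core was present in 5 of the 6 windows, all but that of S100a7a, and in 40.7% of all 32851 promoter windows. TATAAA was found in the windows of S100a8 and S100a9, beside 13.6% of all windows; in S100a8 it began 30 bases before the start, and in S100a9 at the annotated start itself. The AP-1 motif TGANTCA (7.81% of all windows) and the NF-kB motif (8.46%) were searched on both strands too and had no match in these 6 windows. No match means only that these letters are absent from this window, and a match is not evidence of a bound site. The marked matches do not overlap one another in the windows printed.

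The largest differences within the aged group were those of the calprotectin pair. S100a8 had a log2 level of 2.01, 1.50 and 1.91 on young replicates 1 to 3, -1.82 on the 22-month array and 6.48 and 5.89 on the 25-month arrays. The young values lie close together, the 22-month value lies far below them, and both 25-month values lie far above. In scanner units the processed signal was 736 to 1120 in young epidermis, 85.1 at 22 months, and 13600 and 25000 at 25 months, well above background on all 6 arrays. Against the young mean of 1.80 ± 0.27 (SD, n = 3), the 22-month array differed by -3.62 (12.3-fold lower) and the 25-month mean by 4.38 (20.9-fold higher).

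S100a9, which encodes the partner of S100A8, had 2.39, 2.68 and 3.13 on the young arrays, -1.10 at 22 months, and 7.17 and 6.73 at 25 months. It took the same order, with the young mean at 2.73 ± 0.38 (SD, n = 3), the 22-month array at a difference of -3.84 (14.3-fold lower) and the 25-month mean at 4.22 (18.6-fold higher). The level of the S100a9 probe over that of the S100a8 probe was 0.38 to 1.23 log2 units on the young arrays and 0.69 to 0.84 on the aged arrays, so the offset between the probes varied by under 1 log2 unit while each level spanned more than 8. The aged group as a whole had a mean of 3.52 ± 4.63 for S100a8 and 4.27 ± 4.66 for S100a9 (SD, n = 3). Their aged minus young differences were 1.71 ± 2.16 and 1.53 ± 2.17 (SE), smaller than their errors.

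**Figure D1:**
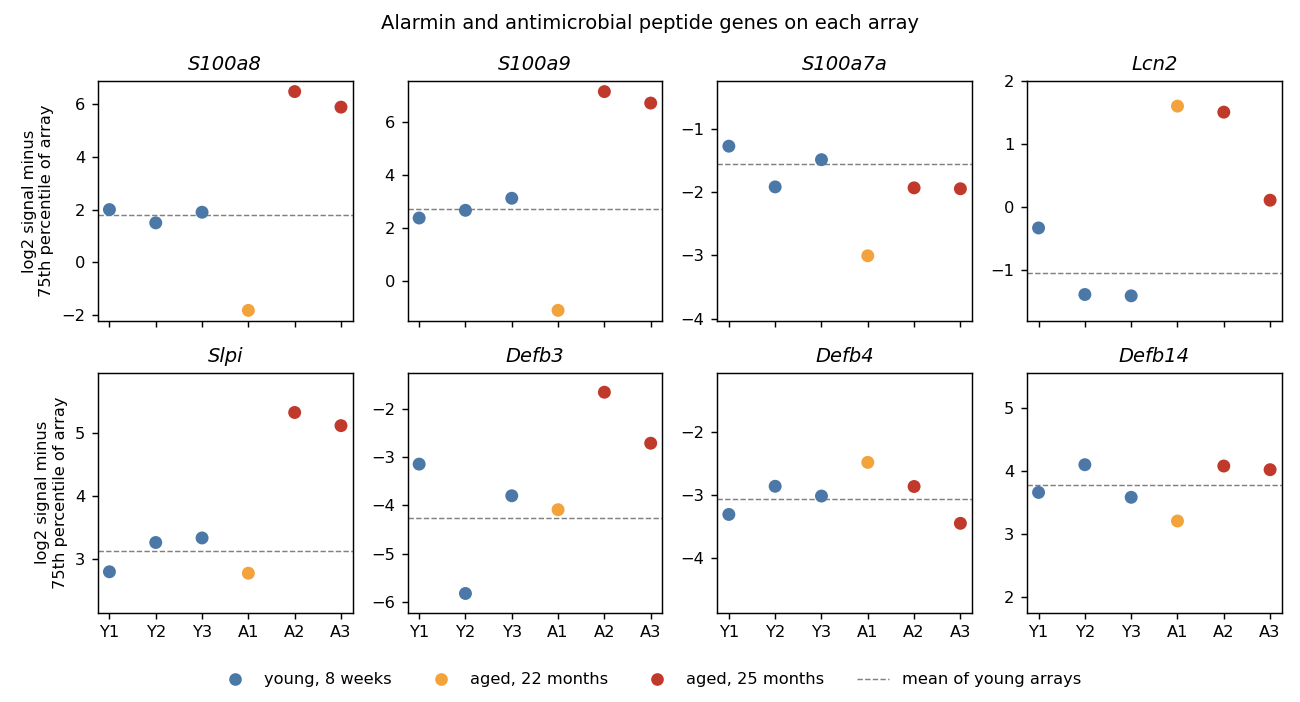
Log2 level relative to the array's 75th percentile (vertical axis, own range for each gene) for the 8 genes on the young arrays (Y1 to Y3, 8 weeks) and the aged arrays (A1, 22 months; A2 and A3, 25 months), one point per array with the young mean as a dashed line. S100a8 lies at 1.50 to 2.01 on the young arrays, at -1.82 at 22 months and at 5.89 and 6.48 at 25 months, and Lcn2 is higher on every aged array than on any young array.

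Slpi, the gene of the secretory leukocyte protease inhibitor, kept this order with a smaller range. Its level was 2.80, 3.26 and 3.33 on the young arrays, 2.77 at 22 months, and 5.32 and 5.11 at 25 months. The 22-month value lay only just below the lowest young value, whereas the 25-month mean was 2.09 log2 units above the young mean (4.25-fold). The aged minus young difference was 1.27 ± 0.68 (SE, n = 3 arrays per group).

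Among all 14133 tested genes, 970 (6.86%) lay below every young array at 22 months and above every young array at 25 months, as these 3 of 8 members did. The reverse order was seen for 427 genes (3.02%). Ranked by the absolute difference between the 25-month mean and the 22-month array, S100a9 (8.05 log2 units) was in place 1 and S100a8 (8.00) in place 3, and the median absolute difference over all tested genes was 0.27. Of the genes in this order, 4 were both at least 4-fold below the young mean at 22 months and at least 4-fold above it at 25 months: S100a8, S100a9, Sprr2e and Fosl1. Sprr2e encodes a small proline-rich protein of the cornified envelope and Fosl1 the AP-1 subunit FRA-1, and both were named after their values were seen.

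**Figure D2:**
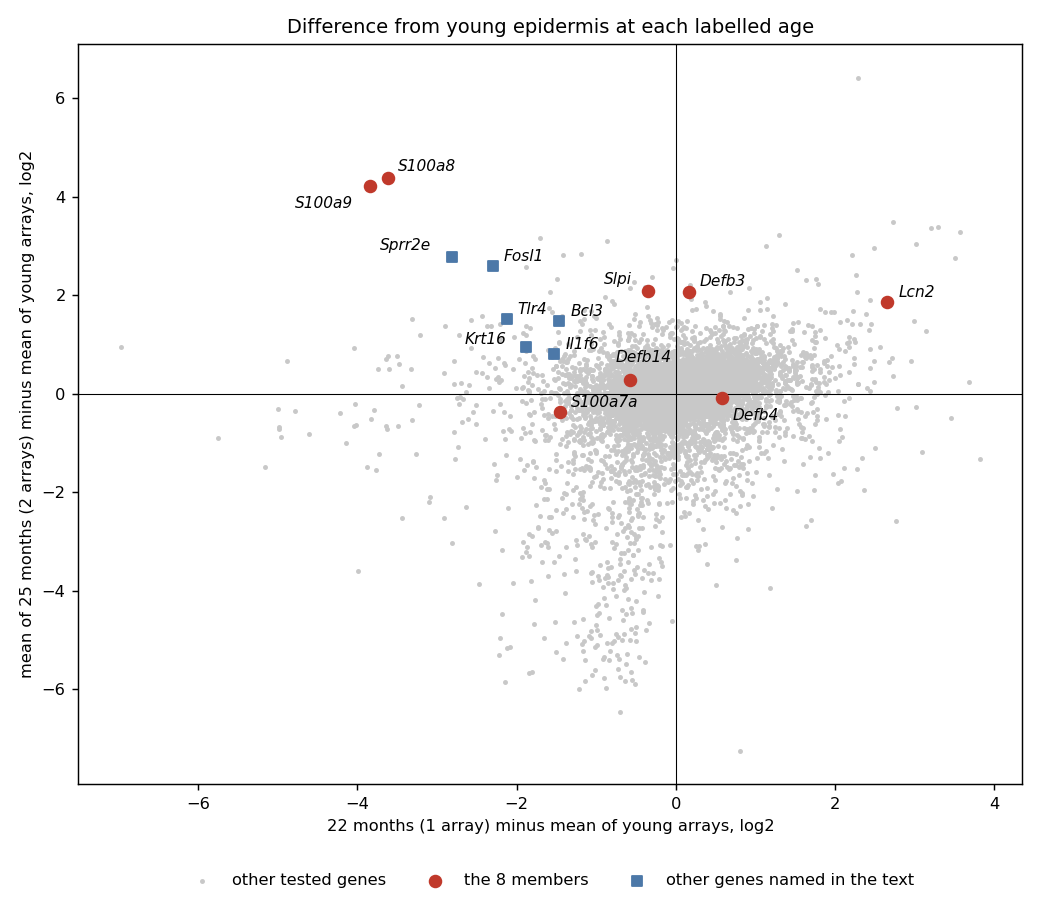
Difference from the mean of the young arrays at 22 months (horizontal axis, 1 array) and at 25 months (vertical axis, mean of 2 arrays), in log2 units, for all 14133 tested genes (grey), the 8 members (red circles) and 6 other named genes (blue squares). S100a8 and S100a9 lie at the upper left, near -3.62 and 4.38 and near -3.84 and 4.22, while Lcn2 lies to the upper right.

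The 22-month array differed from the 25-month arrays in more than age. Transcripts of the Y-linked genes Ddx3y, Eif2s3y and Kdm5d were well above background on replicate 1 of each group and on no other array, whereas Uty was above background on these arrays and on young replicate 3. Xist, the RNA of X inactivation, was in place 4 of the ranking by age difference: it was at -2.87 on young replicate 1 and 1.34 and 1.24 on the other young arrays, not above background at 22 months, and at 0.72 and 0.99 at 25 months. Between replicate 1 of the groups, aged minus young was -3.82 for S100a8, -3.49 for S100a9 and -0.02 for Slpi. In replicates 2 and 3 the same differences were 4.98 and 3.99 for S100a8, 4.49 and 3.60 for S100a9, and 2.06 and 1.78 for Slpi. Age in months, the presence of Y-linked transcripts and the single 22-month sample cannot be told apart in the aged group.

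Lcn2, the gene of lipocalin 2, was the member whose aged values all lay above the young ones, and its young values were spread. Its level was -0.34, -1.40 and -1.42 on the young arrays, 1.61 at 22 months, and 1.51 and 0.11 at 25 months. The lowest aged value lay 0.44 log2 units above the highest young value, and unlike S100a8 the gene was high on the 22-month array. The difference was 2.12 ± 0.49 (SE, n = 3 arrays per group, 4.36-fold). Of all tested genes 19.2% were higher in aged epidermis without overlap of the groups, and nothing is read from the 1 member in that class, since the choice of members used this contrast.

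S100a7a, the mouse relative of human psoriasin, lies beside S100a8 and S100a9 in the S100 gene cluster. Its aged mean was below the young mean, unlike theirs. At 22 months it was below the young mean as they were, by -1.45, and at 25 months it did not rise with them. Its level was -1.27, -1.91 and -1.48 on the young arrays, -3.01 at 22 months, and -1.93 and -1.94 at 25 months. All aged values were below all young values, but the gap between the groups was only 0.015 log2 units (7.51% of tested genes were lower without overlap). The difference was -0.74 ± 0.34 (SE), and it was -0.38 without the 22-month array.

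The beta-defensin genes did not move as a group. Defb14, at 3.66, 4.10 and 3.59 on the young arrays, was at 3.21 at 22 months and 4.08 and 4.02 at 25 months, with a difference of -0.01 ± 0.28 (SE). Its young and aged ranges overlapped, and the sign of this small difference was kept in 11 of 17 other settings. Defb4, an inducible beta-defensin gene, was dim, at -3.31, -2.86 and -3.01 in young and -2.48, -2.86 and -3.45 in aged epidermis in the same array order. Its ranges overlapped as well, with a difference of 0.13 ± 0.27 (SE) and the same sign in 15 of 17 other settings.

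Defb3, also an inducible gene, was near the limit of detection. It was well above background on 2 of 3 young and 3 of 3 aged arrays, at -3.15, -5.83 (not well above background) and -3.80 in young epidermis, -4.09 at 22 months, and -1.66 and -2.71 at 25 months. Both 25-month values were above the young range and the 22-month value was inside it. The difference of 1.44 ± 0.87 (SE) was 0.65 without young replicate 2, the array where the spot was not above background, and 0.39 with normexp background correction. The size of this difference therefore rests on 1 dim spot and on the handling of background.

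**Figure D3:**
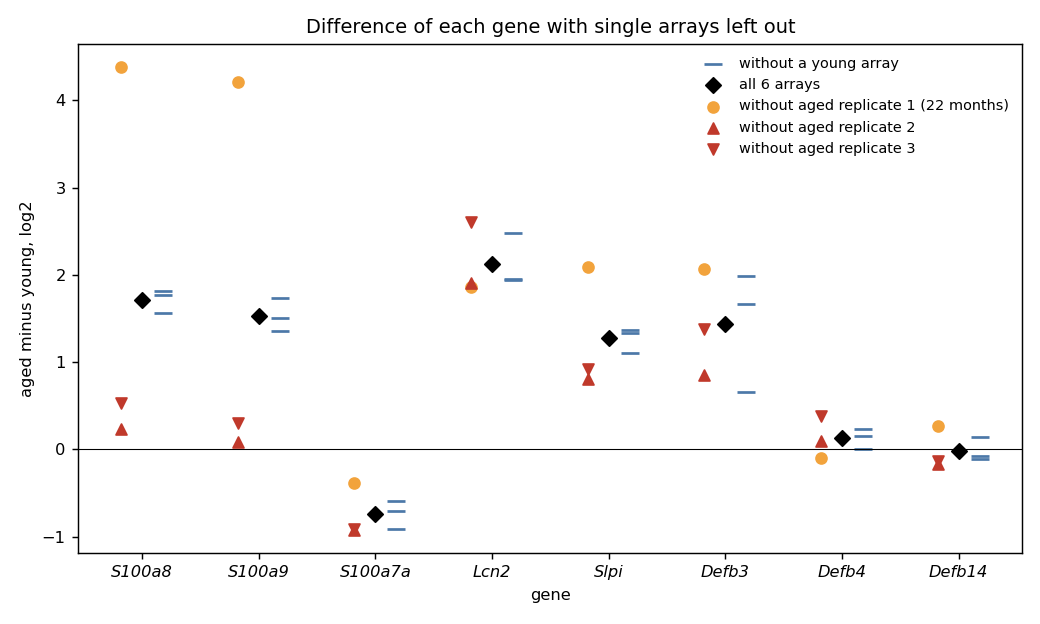
Aged minus young difference in log2 units (vertical axis) for each of the 8 genes with all 6 arrays (black diamonds), without each aged array (orange circles and red triangles) and without each young array (blue dashes). Without the 22-month array the difference of S100a8 is 4.38, and without aged replicate 2 it is 0.23, whereas Lcn2 stays between 1.86 and 2.61.

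Neighbouring genes were read beside the members. In RefSeq gene order S100a7a, S100a8 and S100a9 follow one another on chromosome 3, with S100a6 before them and Pglyrp4, a peptidoglycan recognition protein gene, after them. S100a6 differed by 0.09 (limma adjusted p = 0.800), with -0.14 at 22 months and 0.20 at 25 months against the young mean. Pglyrp4 was at -1.21, -0.68 and -0.84 on the young arrays, -2.01 at 22 months, and 0.05 and -0.11 at 25 months, the order of S100a8 in a smaller range. On chromosome 2 that order was also taken by Slc25a25 near Lcn2 (-0.90 at 22 months and 1.16 at 25 months against the young mean). Rbpjl near Slpi took it too (-0.46 and 0.81). The other tested neighbours there, Ciz1, 1110008P14Rik, Ptges2 and Matn4, did not. Defb14, Defb4 and Defb3 lie in 1 cluster on chromosome 8, where Defb6, between Defb4 and Defb3, differed by -0.01 (adjusted p = 0.992).

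For each of the 7 members above background on all 6 arrays, the genes with the most similar profile were taken by Pearson's r over the 6 arrays, among 5292 genes above background on all arrays and with an SD of at least 0.25. With 6 arrays, of which 2 or 3 stand apart, many genes reach such values, so r serves only to order them. S100a8 was followed most closely by Me3, Sertad1 and Sprr2e (r = 0.995 to 0.996), and S100a9 by Tnfsfm13, the late cornified envelope gene Lce3f and Coq10b (0.998 to 0.999). Against the young mean, Lce3f was at -1.21 at 22 months and 1.48 at 25 months. Slpi was followed by Il6st, the gp130 receptor subunit of IL-6 type cytokines, Rhbdl3 and Cfap126 (0.992 to 0.996). Il6st was at 0.45, 0.83 and 0.77 on the young arrays, 0.56 at 22 months, and 2.17 and 1.89 at 25 months.

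The genes closest to Lcn2 were Bub1b, a mitotic checkpoint kinase gene, Psph, an enzyme gene of serine synthesis, and Dsn1, a kinetochore gene (0.991 to 0.999). They differed by far less than Lcn2, with Bub1b 0.66 above the young mean at 22 months and 0.48 at 25 months. S100a7a was followed by Satb1, Fam83d and Macroh2a3 (0.960 to 0.995), Defb4 by Spats2l, Gm8909 and Aldh1a1 (0.952 to 0.972), and Defb14 by Cyp7b1, Mypop and Galt (0.980 to 0.984). No gene was shared between the sets of 3, and the sets of S100a8 and S100a9 were each in the order described for that pair.

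Genes around the members were described in 10 lists of related proteins, receptors, inducers and factors, with 125 tested genes. None passed the threshold (limma, Benjamini-Hochberg adjusted p under 0.05 over all features; smallest adjusted p = 0.123), beside 0.0778% of all tested genes (11 of 14133, 6 higher and 5 lower, or 15 higher and 6 lower with median scaling). At an unadjusted p under 0.05, 15 (12%) were higher and 5 (4%) lower, against 11.2% and 6.33% of all tested genes. With the replicate number as a block, 0 of all genes passed. Without the 22-month array 12 of the 125 (9.6%) passed, 8 higher and 4 lower, beside 5.79% of all tested genes (818, of which 277 were higher and 541 lower). The median aged minus young difference of all tested genes was 0.09.

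The other S100 genes had a median difference of -0.06, and 0 of 12 passed. S100a3, a gene of the hair cuticle, was at -1.13 ± 0.38 (SE, limma adjusted p = 0.220) and at -1.55 without the 22-month array (adjusted p = 0.0192), while S100a10 and S100a11 were at 0.39 ± 0.26 and 0.26 ± 0.13 and S100b at -0.69 ± 0.57. Hair follicle markers were lower on the same arrays, with a median deviation of -0.88 at 22 months and -3.06 and -6.30 at 25 months, and their part in S100a3 was not tested. Of 22 other beta-defensin genes 16 were above background on no array and 3 were tested, Defb1 at -0.10 ± 0.25, Defb2 at -0.03 ± 0.84 and Defb6 at -0.01 ± 0.25 (adjusted p of 0.853, 0.989 and 0.992).

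Among whey acidic protein genes, the family of Slpi, 0 of 6 passed and the median difference was 0.02. Wfdc18 was at 0.28 ± 0.22, Wfdc3 at 0.49 ± 0.25, Wfdc12 at -0.39 ± 0.55 and Wfdc17 at 0.02 ± 0.16 (SE). Of 12 other antimicrobial protein genes 0 passed and the median was 0.10. Adm, the gene of the antimicrobial peptide adrenomedullin, was at 0.73 ± 0.23 (limma adjusted p = 0.206) and passed without the 22-month array (0.96, adjusted p = 0.0265). Chil1 was at 1.04 ± 0.46, Chil3 at 0.72 ± 0.29 and the angiogenin gene Ang at 0.43 ± 0.16. The lysozyme genes Lyz1 and Lyz2, the lactoferrin gene Ltf and the Reg3 genes were not well above background on any array.

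The receptor list had a median difference of 0.31, with 14 of 18 genes higher and 0 past the threshold. Cd14 and Ly96, co-receptors that act with Toll-like receptor TLR4, were at 0.31 ± 0.11 and 0.37 ± 0.14 (limma adjusted p = 0.228 and 0.256). Tlr5, the flagellin receptor gene, was at 0.72 ± 0.23, and Plscr4, whose scramblase protein binds SLPI, at 0.54 ± 0.11 (adjusted p = 0.123). Tlr4, the receptor bound by S100A8 and named here after its values were seen, was dim and above background on 4 of 6 arrays. It was not above background at 22 months, where a bound put it 1.81-fold below the young mean, and at 25 months it was 1.51 log2 units above that mean. Such a bound sets the dimmer array at the lowest signal there that was well above background. It takes the brighter mean as measured, though the young mean of Tlr4 may hold an array not above background. Without the 22-month array 3 receptor genes were higher past the threshold, Tlr4, Myd88 and Plscr1, the last above background on only 4 of 6 arrays. Ager, the RAGE receptor gene, was lower there (adjusted p = 0.0482), but it was above background on 3 of 6 arrays and on neither 25-month array. On young replicate 2 it was at -4.66, under the lowest signal there that was well above background (-4.65). The size of the Ager difference is therefore not bounded. Ccr6, the chemokine receptor that beta-defensins bind, did not rise above background on the 6 arrays.

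Of the cytokine genes that induce these peptides, Il17a, Il17f, Il17c, Il20, Il24, Il1b, Osm and Ifng were above background on no array. Among the 25 tested cytokine and receptor genes 0 passed, with a median difference of 0.15. The receptor genes Il17re, Il10rb and Tnfrsf1a were at 0.44 ± 0.14, 0.38 ± 0.13 and 0.40 ± 0.17, and the ligand gene Tgfa at -0.61 ± 0.22 (limma adjusted p of 0.214 to 0.287). Il1f6, which encodes IL-36 alpha and was named after its values were seen, was at 4.19, 4.20 and 3.60 on the young arrays, 2.47 at 22 months, and 4.76 and 4.85 at 25 months. Il6st (1.35, adjusted p = 0.0175) was higher and Il20ra (-2.21, adjusted p = 0.0128) lower without the 22-month array.

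The signalling and transcription factor list had 29 of 35 genes higher, a median difference of 0.15 and 0 genes past the threshold. Traf3ip2, the adaptor of the IL-17 receptor, was at 0.46 ± 0.14, the NF-kB inhibitor gene Nfkbie at 0.64 ± 0.21, Socs1 at 0.82 ± 0.29 and Stat3 at 0.35 ± 0.13 (limma adjusted p of 0.201 to 0.242). The order seen for S100a8, below every young array at 22 months and above every one at 25 months, held for 15 of these 35 genes, against 6.86% of all tested genes; this count was made after the order was seen. Over all lists it held for 27 of 125 genes (21.6%), with 4 of 25 cytokine and receptor genes, 2 of 6 whey acidic protein genes, 2 of 12 other antimicrobial genes, 1 each among other S100 genes, receptors, stress keratins and partners, and 0 among other beta-defensins and chemoattractants. The reverse order held for 2 of the 125, S100g and Il20ra, both named after their values were seen. Fosl1 was at -1.91, -0.52 and 0.04 on the young arrays, -3.10 at 22 months, and 2.08 and 1.49 at 25 months. Bcl3, an NF-kB cofactor gene, was at 1.84, 1.92 and 1.86, then 0.41, then 3.52 and 3.16. The NF-kB feedback gene Tnfaip3 was at -1.52 against the young mean at 22 months and 0.93 at 25 months, and Nfkbiz, a cofactor gene induced by IL-17, at -1.18 and 0.29. Without the 22-month array Bcl3, Socs1 and Zc3h12a were higher past the threshold (adjusted p of 0.0108, 0.0227 and 0.0313).

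The keratins of stressed epidermis, which often accompany alarmins, did not share 1 order, and 0 of 4 passed. Krt16 was at 6.60, 6.77 and 6.09 on the young arrays, 4.60 at 22 months, and 7.51 and 7.36 at 25 months, so it took the order of S100a8. Krt6a was at -1.02 ± 0.21 (limma adjusted p = 0.130), with deviations of -0.78 to -1.34 on the 3 aged arrays, Krt6b at -0.53 ± 0.21 and Krt17 at -0.58 ± 0.28. Without the 22-month array Krt6a was lower past the threshold (-1.13, limma adjusted p = 0.0478). Of 9 tested partners and target enzymes 0 passed and the median was 0.00; Cyba, an NADPH oxidase subunit gene, was at 0.82 ± 0.24, the progranulin gene Grn at 0.18 ± 0.12, Elane at 0.13 ± 0.13 and Tgm3 at 0.08 ± 0.18. Of 8 neutrophil chemoattractant genes only Cxcl1 was tested (0.21, limma adjusted p = 0.915), and the other 7 were not well above background on any array. Cxcl1 was above background on 5 of 6 arrays and not at 22 months.

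**Figure D4:**
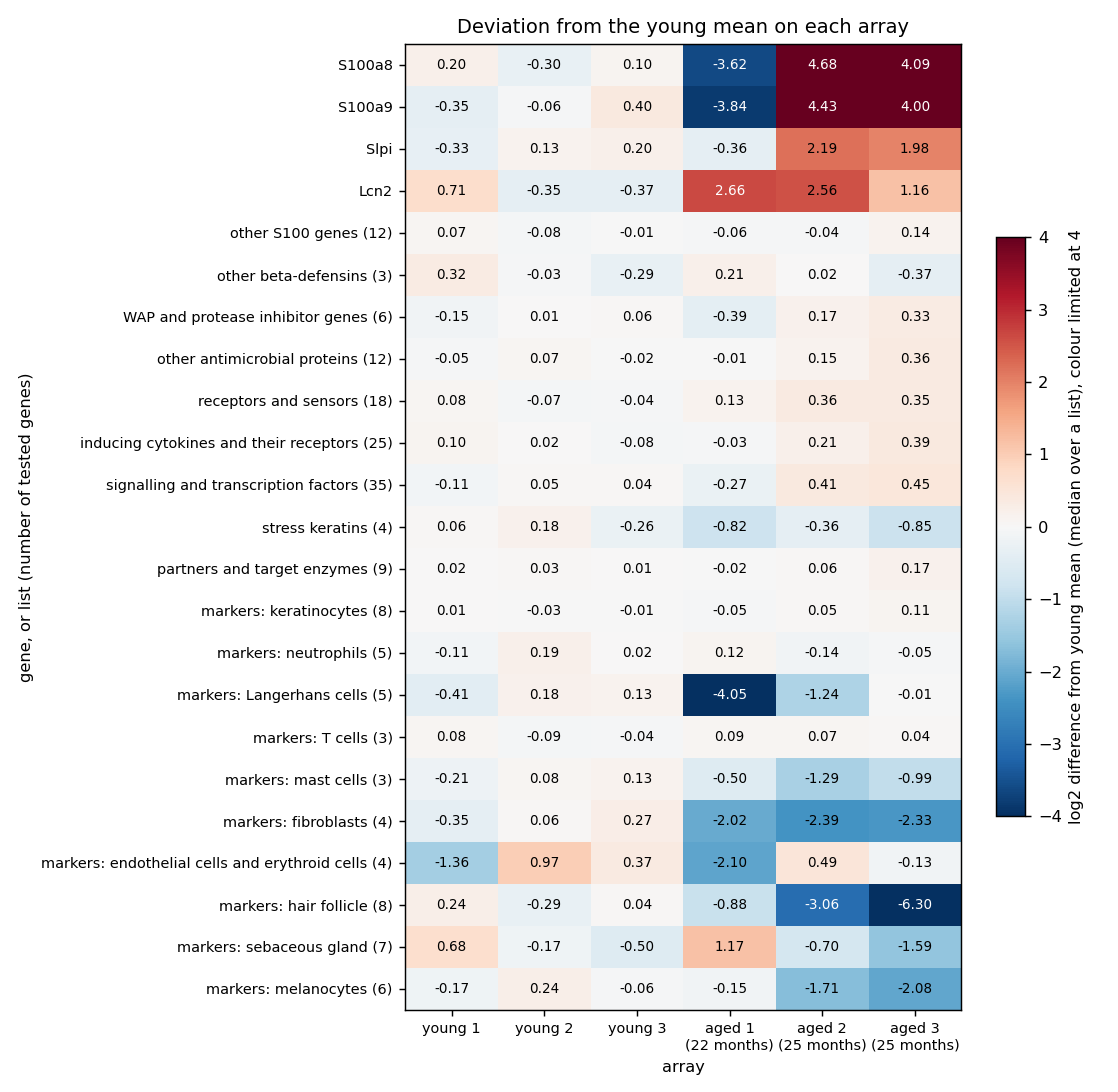
Log2 deviation from the young mean on each array (columns) for 4 members and, as the median over genes, for each list and marker set with at least 3 tested genes (rows, with the number of tested genes); colours stop at 4. The medians of the neutrophil and keratinocyte markers stay within 0.20 of 0 on every array, though single markers such as Cxcr2 deviate more. S100a8 and S100a9 range from -3.84 to 4.68, and the median of the Langerhans cell markers reaches -4.05 at 22 months.

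Because S100A8, S100A9 and lipocalin 2 are abundant in neutrophils, markers of that cell type were read beside them. Of 12 neutrophil markers on the array, 5 were tested and 6, Ngp, Mmp8, Retnlg, Ctsg, Fcnb and Ltf, were above background on no array. The number above background was 4 to 6 on the young and 4 to 5 on the aged arrays, and the median deviation of the tested markers was 0.12 at 22 months and -0.14 and -0.05 at 25 months. Their summed level, in multiples of the 75th percentile, was 183 to 210 on the young and 145 to 194 on the aged arrays and was mostly that of Csf3r. Single markers went different ways. Against the young mean, Cxcr2 was at 0.12 at 22 months and 1.48 and 1.19 at 25 months (limma adjusted p = 0.266; 0.0276 without the 22-month array). Mpo, above background on 3 of 6 arrays, was at 1.25 at 22 months and was not above background at 25 months. Csf3r was at -0.45, -0.18 and -0.03, Camp at -0.36, -0.14 and -0.31, and Elane at 0.25, 0.19 and -0.05 on the aged arrays. Of 8 macrophage and monocyte markers 5 were above background on no array and 2 were tested. Csf1r was at -1.27, -0.56 and -0.16 and C1qb at -0.43, -0.13 and -0.24 on the aged arrays (limma adjusted p = 0.286 and 0.35).

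Markers of Langerhans cells moved with the 22-month array, where their median deviation was -4.05, against -1.24 and -0.01 at 25 months; 2 of 7 were above background there and 5 to 6 on the young arrays, with a summed level of 0.58 at 22 months, 4.16 and 8.82 at 25 months and 6.70 to 10.5 on the young arrays. Hair follicle markers had a summed level of 765 at 22 months and 158 and 19.0 at 25 months, against 952 to 1430 in young epidermis. Other marker sets differed between the aged arrays too. The median deviation at 22 months and on the 25-month arrays was 1.17, -0.70 and -1.59 for sebaceous gland, -0.15, -1.71 and -2.08 for melanocytes, -0.50, -1.29 and -0.99 for mast cells, and -2.10, 0.49 and -0.13 for endothelial and erythroid cells, which were at -1.36 on young replicate 1. That last set was not uniform. At 22 months the globin genes Hba-a1 and Hbb-b1 were at -3.64 and -3.60, and the endothelial genes Pecam1 and Kdr at -0.59 and -0.12. Hbb-b1 was above background on 5 of 6 arrays. For fibroblasts the median deviation was -2.02, -2.39 and -2.33. Of 6 markers 4 were above background on each young array and 2 to 3 on the aged arrays. Their summed level was 5.32 to 8.15 in young epidermis and 20.6, 4.01 and 2.51 on the aged arrays. It was mostly that of Dcn, which deviated by 2.06, -0.36 and -1.08 on the aged arrays. At 22 months Col1a1, Col1a2 and Col3a1 deviated by -2.81, -1.41 and -2.63. With all arrays Col1a1 and Col3a1 were lower past the threshold (limma adjusted p = 0.0282 and 0.0466). Col1a1 was above background on 5 of 6 arrays, not on aged replicate 3. Col3a1 was above background on the 3 young arrays and on no aged array, so it entered the test through the young group alone. Nothing is read from the call of Col3a1, and the size of its difference, also at 22 months, is not measured. The 3 tested T cell markers had medians of 0.04 to 0.09 on the aged arrays and went different ways. Cd3e was at 0.09, 0.07 and 0.04, and Thy1 at 0.68, 2.38 and 1.75. Cd3g, above background on 3 of 6 arrays and not at 22 months, was at -2.75, -0.06 and -0.10. The part of these cell types in the levels of S100a8, S100a9, Slpi and Lcn2 was not tested. The 8 keratinocyte markers were above background on all arrays with a median deviation of -0.05 to 0.11 on the aged arrays, so the defining markers of the labelled tissue were present. In such bulk samples fewer cells of a type and less RNA per cell cannot be told apart.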

How the data were processed

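Per the labels' protocols, RNA of total tail epidermis was amplified, labelled and put on Agilent arrays with 1 colour. Per the file headers, the 6 arrays lie on 1 slide, were read in 1 scan by Feature Extraction 11.5.1.1 and were annotated on mm9. The deposited processed signal is a linear intensity from which that software took background and spatial trend; the median spot and background signals are raw. The authors' deposited table holds log2 values of 33870 probes; it matched the scanner values minus the 75th percentile, centred per probe, with r of at least 0.999 on each array, while its column medians ran from -0.02 to 0.07. Well-above-background flags, another kind of deposited value, were used as given.

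Values were log2 processed signals minus the array's 75th percentile (229.9 to 300 units), without control and outlier spots (116 to 170 per array); no spot was saturated, and 50.0% to 54.4% of probes were well above background. Of 55681 probes 28331 were named by accession through a GRCm38.p6 RefSeq table. Probes above background on at least 3 of 6 arrays and with a value on every array were tested, the brightest probe standing for a gene, which left 14133 genes and 10931 unnamed probes. Aged and young arrays were compared with limma 3.58.1 in R 4.3.3 (lmFit, eBayes, two-sided), adjusted over all 25064 features at 0.05; the fit was tested on simulated data. The members were part of the fit, but their p-values are not used.

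Titles number the samples 1 to 3 in each group. Over genes, samples with the same number deviated together from their group means (r = 0.41, 0.26 and 0.13). As each r exceeded 0.1, the replicate number was also fitted as a block, although no shared litter, day or batch is named in the labels. The members and lists were chosen with earlier results of these data known. From each list the text names genes past the threshold, genes at an unadjusted p under 0.05 with at least 2-fold difference and, where these were fewer than 4, those with the smallest unadjusted p above background on all 6 arrays, up to 4; others are given where a count or an alternative turns on them. S100pbp, which is no S100 gene, was left out. The scanner files used here give median, not mean, spot signals, so normexp (offset 50) used the median. Other alternatives were quantile and median scaling, other filters, the mean of a gene's probes, array weights, the slide row as a block, the authors' table, and leaving out arrays.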

Additional observations from a re-analysis of the deposited data

Results flagged for a closer look

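For some genes every array of 1 age lay on one side of the young range and every array of the other age on the opposite side. The difference between the ages was not tested, and it rests on 1 array at 22 months and 2 at 25 months. The 25-month mean minus the 22-month value was 8.00 log2 units for S100a8, 8.05 for S100a9 and 2.44 for Slpi. Among genes of the lists it was 0.67 for Wfdc18, 2.83 for Krt16, 4.88 for Fosl1, 2.93 for Bcl3, 3.63 for Tlr4 (not above background at 22 months, so only a difference of at least 5.17-fold is measured), 2.33 for Il1f6, 1.98 for Pglyrp4, 1.48 for Nfkbiz, 2.44 for Tnfaip3 and 1.74 for Zc3h12a. Among genes with profiles like those of the members it was 5.59 for Sprr2e, 2.59 for Me3, 1.14 for Sertad1, 1.18 for Tnfsfm13, 2.68 for Lce3f, 1.27 for Coq10b, 1.39 for Rhbdl3, 0.78 for Cyp7b1 and 0.70 for Mypop; these were picked for that likeness. In these genes the 22-month array was the lower. In 2 list genes it was the higher, with a difference of -2.76 for Il20ra and -1.85 for S100g.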

How the results depend on the processing

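The number of members higher in aged epidermis was 6 with all arrays, 6 to 7 with 1 array left out and 5 to 7 over all alternatives, the 5 where Defb3 had no value. S100a8, S100a9, Lcn2, Slpi and Defb3 were higher and S100a7a lower under every alternative that gave a value, though the difference of S100a8 ran from 0.23 (without aged replicate 2) to 4.48 (without replicate 1 of both groups) and that of S100a9 from 0.08 (without aged replicate 2) to 4.22 (without aged replicate 1). Over all genes 11 passed with all arrays, 7 with quantile normalization, 21 with median scaling, 3 with probes above background on all 6 arrays, 1 with no filter, 0 with the replicate number as a block, 0 with the slide row as a block, where row 1 holds young arrays alone, 239 without replicate 1 of both groups, and 0 to 818 with 1 array left out. With array weights, whose estimate did not converge and which gave aged replicate 1 a weight of 0.267 and aged replicate 2 one of 4.79, 3193 genes passed; among the lists 4 other S100 genes, 2 whey acidic protein genes, 3 other antimicrobial, 9 receptor, 8 cytokine, 9 signalling, 1 stress keratin and 1 partner gene passed. Every list held 0 called genes with all arrays; with 1 array left out the counts ran from 0 to 1 for other S100 genes, other antimicrobial proteins and stress keratins, 0 to 4 for receptors, 0 to 2 for cytokines and 0 to 3 for signalling factors, and 1 signalling gene passed without replicate 1 of both groups. The cause of these shifts was not tested. The replicate block changed no call in the 10 gene lists, which had none. Defb3 could not be fitted with probes above background on all 6 arrays. Signal over background limits Defb3, Tlr4, Plscr1, Ager, Mpo, Cd3g, Hbb-b1, Col1a1, Col3a1, Cxcl1 and Xist, each not above background on at least 1 array. Defb4 was above background on all 6 arrays but dim.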
